A study of Homo sapiens with 2 samples.

Results

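Chromatin accessibility at the major histocompatibility complex (MHC) class II genes and at CIITA, their transcriptional coactivator, was examined in G401 cells treated with a PRC2 inhibitor or its solvent. The set holds 10 of 20163 protein-coding genes: CIITA, CD74, HLA-DRA, HLA-DRB1, HLA-DQA1, HLA-DQB1, HLA-DPA1, HLA-DPB1, HLA-DMA and HLA-DMB. A called peak belonged to the set if it came within 3 kb of any annotated transcription start site (TSS) of these genes or lay inside their gene bodies. This rule took 18 of 114060 DMSO peaks and 34 of 161184 MAK683 peaks. All 10 genes were kept in the counts below, including those with no peak.

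G401 is a human cell line established from a renal rhabdoid tumor, a tumor type defined by loss of SMARCB1, and both cultures were grown in the same serum-containing medium with 2-mercaptoethanol. One culture received DMSO for 3 days. The other was given MAK683, an EED-binding compound that blocks the histone methyltransferase complex PRC2, for 3 days, at 3 μM per the series design. Each group was 1 ATAC-seq library, made by Tn5 insertion into accessible DNA, so that differences between the libraries are given with counting intervals and without tests.

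MHC class II molecules present peptides from the endosomal route to CD4+ T cells. HLA-DR, -DQ and -DP are surface heterodimers of an alpha and a beta chain, CD74 is the invariant chain that guides them to endosomes, and HLA-DM exchanges the CD74 fragment in their groove for peptide. Their promoters share the X and Y boxes, bound by RFX, CREB and NF-Y, and CIITA is recruited to these factors without binding DNA itself. CIITA is transcribed from several alternative promoters, one of which responds to interferon gamma, and most non-immune cells keep it silent without that cytokine.

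Peak height was the deposited pileup, which counts the extended tags that cover a peak's summit, divided by the tags left after filtering and given as reads per 1000000 (RPM). With 16598348 tags for DMSO and 18265284 for MAK683, 1 tag equalled 0.0602 and 0.0547 RPM, and the lowest peak called anywhere held 6 tags in each library (0.361 and 0.328 RPM). Across promoters, heights were lower in the MAK683 library (median log2 ratio −0.46 over 15063 genes with a promoter peak in both libraries), so that ratios of single genes are to be read against this value. As a check of the line, SMARCB1, a subunit of the SWI/SNF remodelling complex, had 0 peaks in its gene body and promoter in either library, whereas ACTB, GAPDH, TBP and POLR2A had promoter peaks in both. Of 8 blood cell genes, 4 had a promoter peak in DMSO and 5 in MAK683. The B cell gene CD79A had 20 tags in DMSO, PTPRC had 15 and SPI1 had 10, ITGAX had one of 8 tags in MAK683 only, and CD14, MS4A1 and CD3E had none. Whether a few cells of another type add to the class II values was not tested.

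Counting any annotated start, 6 of the 10 genes had a promoter peak in DMSO and 8 in MAK683, beside 76.2% and 82.5% of all coding genes, and the 6 had it in both libraries (74.7% of all genes). These were CIITA, CD74, HLA-DRB1, HLA-DQB1, HLA-DMA and HLA-DMB. HLA-DPA1 and HLA-DPB1 had one in MAK683 only (2 of 10, beside 7.8%), through the same 2 peaks, so that these calls are not independent. No member had one in DMSO only (1.54% of all genes), and HLA-DRA and HLA-DQA1 had none in either library (2 of 10, beside 16%). Counting only the canonical start of each gene, 5 of 10 had a peak in DMSO (72.7% of all genes) and 6 in MAK683 (78.7%). At this start 4 of 10 had a peak in both (CD74, HLA-DRB1, HLA-DQB1 and HLA-DMB; 70.9% of all genes), 2 in MAK683 only (CIITA and HLA-DPB1; 7.87%), 1 in DMSO only (HLA-DMA; 1.84%) and 3 in neither (HLA-DRA, HLA-DQA1 and HLA-DPA1; 19.4%). CIITA and HLA-DMA changed class between these counts, since peaks of both libraries lay near others of their annotated starts, as described with each gene below. HLA-DPA1 changed as well, from MAK683 only to neither, since its MAK683 peaks lay near others of its starts. Ordered by height at the canonical start, the DMSO library had CD74, HLA-DMB, HLA-DMA, HLA-DQB1 and HLA-DRB1, from 2.59 down to 0.542 RPM. The MAK683 library had CD74, CIITA, HLA-DMB, HLA-DQB1, HLA-DPB1 and HLA-DRB1, from 1.81 down to 0.712 RPM. The 95% counting intervals of neighbours in either order overlap.

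**Figure D1:**
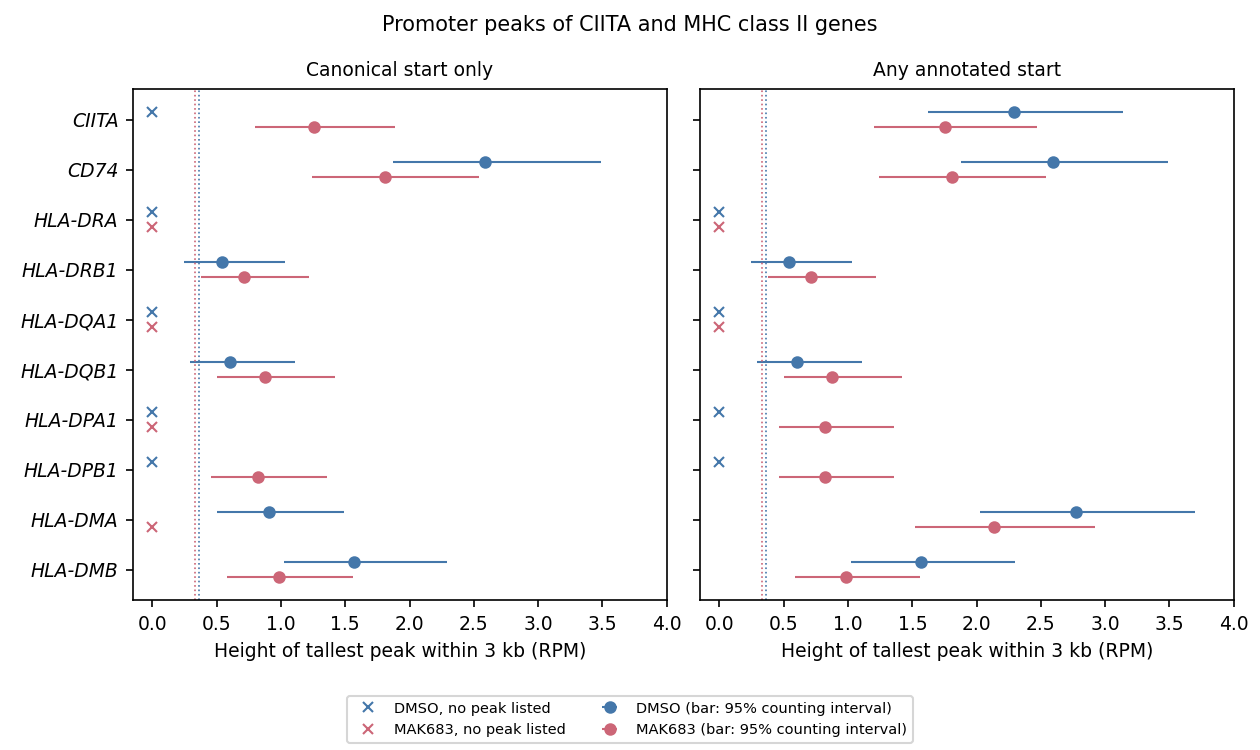
Height in RPM of the tallest promoter peak of each gene in the DMSO (blue) and MAK683 (red) library, using the canonical start (left) or any annotated start (right). Bars are 95% exact intervals for counting error, crosses at 0 mark genes with no peak listed and not a measured height of 0, and dotted lines are the lowest heights called in each library; at the canonical start CIITA had a peak of 1.26 RPM in MAK683 only and HLA-DMA one of 0.904 RPM in DMSO only.

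CIITA (ENSG00000179583, chr16:10960079-11036878, plus strand, hg19) showed the clearest difference of the set. It spans 76.8 kb and held 4 peaks in DMSO and 14 in MAK683. From 3 kb before its most upstream start to 50 kb after it, a stretch of 53.001 kb, the DMSO library had 0 peaks. The MAK683 library had 12, which covered 6.65 kb. Those of 7 to 9 tags had −log10 q of only 2.32 to 3.79, and the taller ones had 5.47 to 18.2. The 12 thus include weak calls that are lost under stricter settings. Of all 20163 genes, 109 (0.541%) had at least 12 MAK683 peaks and no DMSO peak in the stretch placed the same way, while 15.2% had no DMSO peak there. Both limits are CIITA's own values, and the stretch ends before the next DMSO peak, at chr16:11016843. The share therefore describes CIITA and tests nothing.

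The 12 peaks covered 3 of the 5 groups of annotated CIITA starts in this stretch, and the groups 35.337 and 49.424 kb after the first start had no peak within 3 kb in either library. At the most upstream group, of 2 starts, the MAK683 library had a peak at chr16:10959621-10961084 with 18 tags (0.985 RPM, 95% exact Clopper-Pearson interval 0.584 to 1.56). At the second group, 10.976 kb downstream and made of 7 starts including the canonical one, the peak at chr16:10970361-10972031 held 23 tags (1.26 RPM, 0.798 to 1.89) and its summit lay 91 bp before the canonical start. At the next, 12.747 kb downstream of the first, the peak at chr16:10972400-10973273 held 13 tags (0.712 RPM, 0.379 to 1.22) with its summit 255 bp before the start. The other 9 peaks of the stretch held 7 to 14 tags and lay in introns of CIITA, the farthest with its summit 17886 bp after the canonical start. No DMSO peak touched any of these start groups. Among the 1587 genes whose canonical promoter had a peak in MAK683 only, the median height was 11 tags, and 49 (3.09%) reached the height at CIITA.

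The 250 bases before the first and the most downstream of these starts are shown because they are sequences under or beside the MAK683 peaks. They were read from the reference genome (GRCh37, plus strand), and capitals mark matches to motifs searched on both strands: ATTGG (the core of the Y box bound by NF-Y, printed as CCAAT where it lies on the other strand), CACGTG (an E box, bound by USF1 among others) and GAAA repeated after any 2 bases (a pattern bound by interferon regulatory factors).
CIITA first start, chr16:10959829-10960078: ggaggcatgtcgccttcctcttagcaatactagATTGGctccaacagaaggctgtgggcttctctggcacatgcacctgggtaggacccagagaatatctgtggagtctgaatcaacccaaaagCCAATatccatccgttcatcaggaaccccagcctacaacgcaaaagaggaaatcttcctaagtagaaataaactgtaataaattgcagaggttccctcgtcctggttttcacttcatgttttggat
CIITA downstream start, chr16:10972576-10972825: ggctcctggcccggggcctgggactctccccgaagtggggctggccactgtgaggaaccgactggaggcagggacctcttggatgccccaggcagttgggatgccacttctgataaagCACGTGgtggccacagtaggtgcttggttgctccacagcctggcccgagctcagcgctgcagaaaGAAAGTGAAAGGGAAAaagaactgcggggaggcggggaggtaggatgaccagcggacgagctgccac
The window before the first start held ATTGG on each strand, and that before the downstream start held CACGTG and a pair of overlapping GAAA repeats. Over 20140 coding promoters of this length at canonical starts, ATTGG occurred in 34.2%, CACGTG in 7.86% and the GAAA repeat in 2.87%. The window of the downstream start was richer in G and C (63.2%) than that of the first (46.4%).

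**Figure D2:**
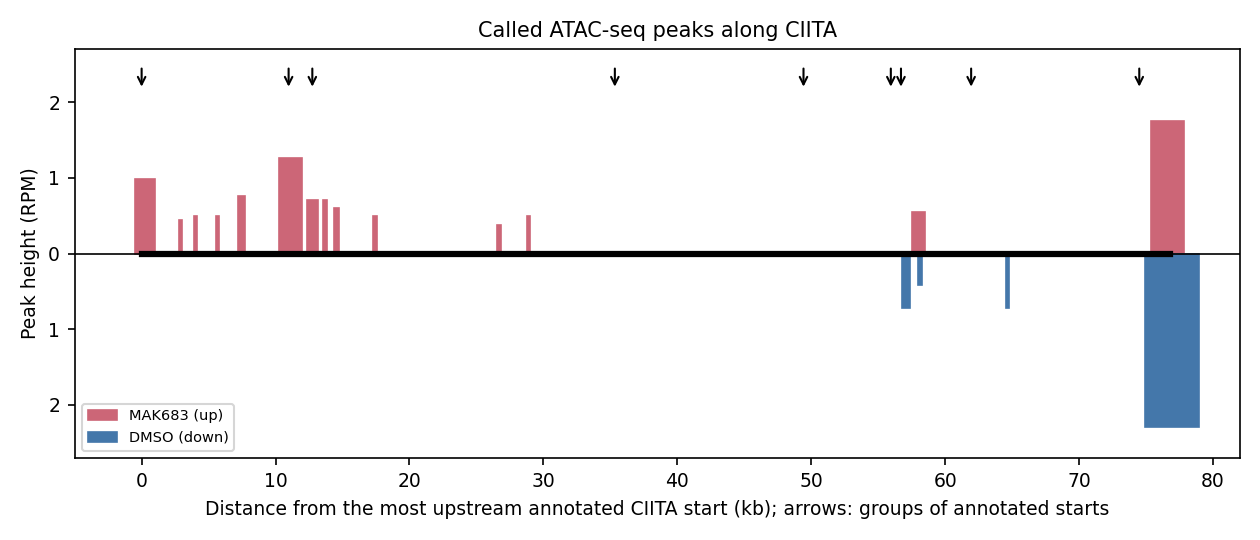
Called peaks along CIITA by distance in kb from its most upstream annotated start. Boxes span each peak from start to end and rise (MAK683, red) or descend (DMSO, blue) to its height at the summit in RPM, the black bar is the gene and arrows are groups of annotated starts; 12 MAK683 peaks and no DMSO peak lie in the part up to 50 kb, and the tall peaks at the right end belong to both libraries.

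The rest of CIITA was shared or leaned the other way. Near the starts that lie deep in the gene, 2 DMSO peaks of 12 tags each (0.723 RPM, at chr16:11016843-11017478 and chr16:11024659-11024860) had no MAK683 counterpart, and 1 place was called in both, with 7 tags in DMSO and 10 in MAK683. The tallest peak assigned to CIITA stood at the 3′ end of the gene, with 38 tags in DMSO (2.29 RPM, chr16:11034992-11039068) and 32 in MAK683 (1.75 RPM, chr16:11035435-11037895). The log2 ratio of MAK683 over DMSO was −0.39 (95% Poisson interval −1.06 to 0.29, counting error only). It came within 3 kb of the start of a short CIITA transcript, but its summits lay 162 bp from the CLEC16A start in DMSO and 81 bp from the DEXI start in MAK683, and the peaks are the same as those counted for DEXI and CLEC16A. The promoter call in DMSO for CIITA rested on this peak and those at the deep starts, and not on its leading starts.

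The DMSO library had no peak between chr16:10838659 and chr16:11016843, a gap of 178.183 kb that holds the leading part of CIITA, whereas the MAK683 library had 21 peaks in it. Of these, 9 lay upstream of CIITA beyond its 3 kb window, with at most 14 tags. TVP23A, a neighbour in this gap, had a promoter peak in MAK683 only (10 tags), as had 7.87% of all genes at the canonical start. Of 2881 gaps between neighbouring DMSO peaks that were at least as long, 612 (21.2%) held at least 21 MAK683 peaks. Longer gaps have room for more peaks, so that this share is not matched for length.

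CD74, on chromosome 5 (chr5:149781200-149792532, minus strand), was accessible in both libraries, with 7 peaks in DMSO and 8 in MAK683 that merged into 6 regions, each found in both. Its promoter peak was the tallest of the set at a canonical start in each library. It held 43 tags in DMSO (2.59 RPM, 1.87 to 3.49) and 33 tags in MAK683 (1.81 RPM, 1.24 to 2.54), a log2 ratio of −0.52 (−1.17 to 0.13) that is close to the median of all promoters. The shape of the peak differed. In DMSO a single peak of 4118 bp covered the start and the first part of the gene, and its summit was in an intron 2175 bp downstream of the canonical start. In MAK683 the same place was called as 3 peaks, of which the tallest had its summit 57 bp before the canonical start and another, of 28 tags (1.53 RPM), had it in the intron at 2560 bp, so that the ratio sets summits at different positions side by side. The neighbours RPS14, TCOF1 and NDST1 had a median log2 ratio of −0.47 at their canonical starts.

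For the surface heterodimers, accessibility was low or not called. HLA-DRA (chr6:32407655-32412823), which encodes the alpha chain of every HLA-DR molecule, and HLA-DQA1 (chr6:32595956-32614839), the alpha chain of HLA-DQ, had no peak in the promoter or gene body of either library. At HLA-DRB1 (chr6:32545679-32557625, minus strand), a beta chain of HLA-DR, the promoter peak held 9 tags in DMSO (0.542 RPM, 0.248 to 1.03) and 13 in MAK683 (0.712 RPM, 0.379 to 1.22), with summits 4 and 19 bp before the start. The log2 ratio was 0.39 (−0.83 to 1.62). MAK683 had 5 further peaks of 7 to 14 tags inside HLA-DRB1 and DMSO had none, which made 6 peaks against 1. Of 16235 genes with a DMSO peak, 18.3% had at least 2 times as many peaks in MAK683, and 4 of the 5 added peaks at HLA-DRB1 held 7 to 9 tags. The fifth, at chr6:32548349-32548649 in an exon, held 14 tags (0.766 RPM, 0.419 to 1.29), 1 more than the promoter peak.

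HLA-DQB1 (chr6:32627244-32636160, minus strand), the beta chain of HLA-DQ, had a single peak in each library, of 10 tags in DMSO (0.602 RPM, 0.289 to 1.11) and 16 in MAK683 (0.876 RPM, 0.501 to 1.42). Its log2 ratio was 0.54 (−0.60 to 1.68). HLA-DRB1 and HLA-DQB1 were thus the members with both peaks that were higher in MAK683, beside 13.9% of all promoters with both, but the interval of each ratio includes both 0 and the median of all promoters. These genes are highly polymorphic and have near-identical copies such as HLA-DRB5, and how reads matching more than 1 copy were placed is not given in the sources used here, so that heights at HLA-DRB1 and the HLA-DQ genes are uncertain.

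HLA-DPA1 (chr6:33032346-33048552, minus strand) and HLA-DPB1 (chr6:33043767-33057473, plus strand), the chains of HLA-DP, overlap and start on opposite strands. DMSO had no peak in either gene. MAK683 had 1 peak at chr6:33043547-33043772 with 15 tags (0.821 RPM, 0.460 to 1.35), whose summit was 96 bp before the HLA-DPB1 start, and another of 7 tags 298 bp after it. Both counted for both genes, since some HLA-DPA1 transcripts start nearby, while the canonical HLA-DPA1 start had no peak within 3 kb. Among canonical promoters with a peak in MAK683 only, 312 of 1587 (19.7%) were at least as tall as that of HLA-DPB1, so its height is not unusual for such promoters.

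The part of the HLA-DPB1 peak before the start is shown with the windows that end shortly after the ATTGG nearest to the start of 4 further genes, to place the shared promoter boxes against the called peaks. Each is given 5′ to 3′ on the strand of its gene (GRCh37). Capitals mark ATTGG, or CCAAT where it lies on the other strand in the HLA-DPB1 peak, and GCAAC, an X box core, where ATTGG followed it by 24 to 32 bases.
HLA-DPB1 peak, chr6:33043547-33043766, plus strand: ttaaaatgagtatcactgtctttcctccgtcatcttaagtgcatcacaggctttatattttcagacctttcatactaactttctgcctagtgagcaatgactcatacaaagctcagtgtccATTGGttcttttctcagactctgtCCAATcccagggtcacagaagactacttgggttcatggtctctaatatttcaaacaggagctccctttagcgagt
HLA-DRB1, chr6:32557662-32557721, minus strand: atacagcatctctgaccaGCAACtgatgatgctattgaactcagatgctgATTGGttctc
HLA-DQA1, chr6:32605065-32605124, plus strand: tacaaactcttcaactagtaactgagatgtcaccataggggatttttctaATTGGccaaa
HLA-DQB1, chr6:32634513-32634572, minus strand: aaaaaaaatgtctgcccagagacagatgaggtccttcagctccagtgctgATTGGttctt
HLA-DMA, chr6:32920914-32920973, minus strand: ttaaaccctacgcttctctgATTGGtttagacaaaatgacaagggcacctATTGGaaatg
The ATTGG core occurred in 8 of the 10 member promoters on either strand, against 34.2% of 20140 promoters, and HLA-DPA1 was among those without it. GCAAC followed by ATTGG at the stated spacing was found in HLA-DRB1 among the windows shown, with a gap of 27 bases, and in 71 promoters in all (0.353%). CACGTG was found in none of the members at a canonical start.

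The printed ATTGG of HLA-DRB1 and HLA-DQB1 lay under a peak of both libraries. The summits were 38 bp (DMSO) and 23 bp (MAK683) from it at HLA-DRB1, and 26 and 11 bp at HLA-DQB1. At HLA-DPB1 the MAK683 summit fell on the upstream ATTGG (distance 0 bp) and no DMSO peak covered it. At HLA-DQA1 and HLA-DMA the ATTGG nearest to the start lay under no peak of either library. The same letters were thus present in promoters with and without a peak. Member promoters were also poorer in G and C than most: over 250 bases before the canonical start, 9 of 10 were below the all-promoter median of 63.2%, with a median of 45.6% and a range of 37.2 to 64.8%. HLA-DPA1 was the exception, with 64.8% and 21 CpG sites. The members held a median of 2.5 CpG sites, and all promoters a median of 18.

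HLA-DMB (chr6:32902406-32908805, minus strand) and HLA-DMA (chr6:32916390-32936871, minus strand), the chains of the peptide exchanger HLA-DM, were the tallest members in DMSO after CD74 at their canonical starts. HLA-DMB had 1 peak in each library, of 26 tags in DMSO (1.57 RPM, 1.02 to 2.30) and 18 in MAK683 (0.985 RPM, 0.584 to 1.56). The summits were 35 and 42 bp before the start. The log2 ratio of −0.67 (−1.54 to 0.20) lay between the lower quartile of all promoters (−0.69 at canonical starts) and their median.

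At HLA-DMA, the DMSO library had a peak of 15 tags 290 bp before the canonical start (0.904 RPM, 0.506 to 1.49, chr6:32920982-32921464) and another of 13 tags at chr6:32922821-32923054, and the MAK683 library had neither. Of 372 genes with a canonical promoter peak in DMSO only, 37 (9.95%) were as tall. A small peak beyond the 3′ end, within 3 kb of an internal start, was called in both libraries, with 10 tags in DMSO and 9 in MAK683. The tallest peak assigned to HLA-DMA, 46 tags in DMSO (2.77 RPM) and 39 in MAK683 (2.14 RPM) with a log2 ratio of −0.38 (−0.99 to 0.24), came into the set through a long transcript that starts beside BRD2. This is the same peak that was counted for BRD2, which encodes a ubiquitous bromodomain protein. HLA-DMA had 4 peaks in DMSO against 2 in MAK683, and 20.1% of 17384 genes with a MAK683 peak had at least 2 times as many in DMSO.

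Over all members, the peaks of both libraries merged into 36 regions, of which 13 were found in both (29.1% of all 199510 regions were), 4 in DMSO only (25.1%) and 19 in MAK683 only (45.9%). The 19 held 7 to 23 tags, with a median of 9, and were 12 at CIITA, 5 at HLA-DRB1 and 2 at HLA-DPA1 and HLA-DPB1. The 4 held 12 to 15 tags and were 2 at CIITA and 2 at HLA-DMA. Among the 6 genes with a promoter peak in both, 2 were higher and 4 lower in MAK683, with a median log2 ratio of −0.38 against −0.46 over all such promoters, and 0 reached a 2-fold difference in either direction (1.1% of promoters were at least 2-fold higher and 5.34% at least 2-fold lower). At canonical starts the same held for the 4 genes with both, 2 higher and 2 lower with a median of −0.06, beside shares of 1.11% and 5.89% at least 2-fold higher and lower and 13.5% higher at all.

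The genes from HLA-DRA to HLA-DPB1 lie together in 0.650 Mb of chromosome 6, where DMSO had 24 peaks and MAK683 had 32, or 36.9 and 49.2 per Mb. The order turned under stricter settings, with 18 DMSO and 14 MAK683 peaks at −log10 q of at least 5, and 8 and 7 at 10. With equal numbers of peaks per library, chosen after seeing the data, there were 24 and 20. A member peak of 10 tags had −log10 q of 5.10 in DMSO and 4.61 in MAK683. The median peak over the genome held 11 tags in DMSO and 10 in MAK683. The filter at 5 therefore removed a larger share of all MAK683 peaks than of DMSO peaks. Whether the turn is particular to this region was not tested. Before filtering, the ratio of 1.33 was below those of chromosome 6 (1.64) and of the genome (1.41). The difference was placed unevenly. From HLA-DRA to HLA-DQB1, 228.506 kb with the DR and DQ genes, there were 3 DMSO and 11 MAK683 peaks. Most of these MAK683 peaks held 7 to 9 tags, and MAK683 peaks of that height at HLA-DRB1 had −log10 q below 5. Between HLA-DQB1 and HLA-DMB, where the TAP and PSMB genes of the class I route lie, there were 9 in each, and from HLA-DMB to HLA-DMA 5 in DMSO and 3 in MAK683. Between HLA-DMA and HLA-DPA1 there were 8 in each, with 1 peak of each library that crosses the end of HLA-DMA counted on both sides. The span of HLA-DPA1 and HLA-DPB1 had 0 in DMSO and 2 in MAK683. In the stretch from HLA-DRA to HLA-DQB1 the tallest peak was 12 tags in DMSO and 16 in MAK683, and in the middle stretch 44 and 30.

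**Figure D3:**
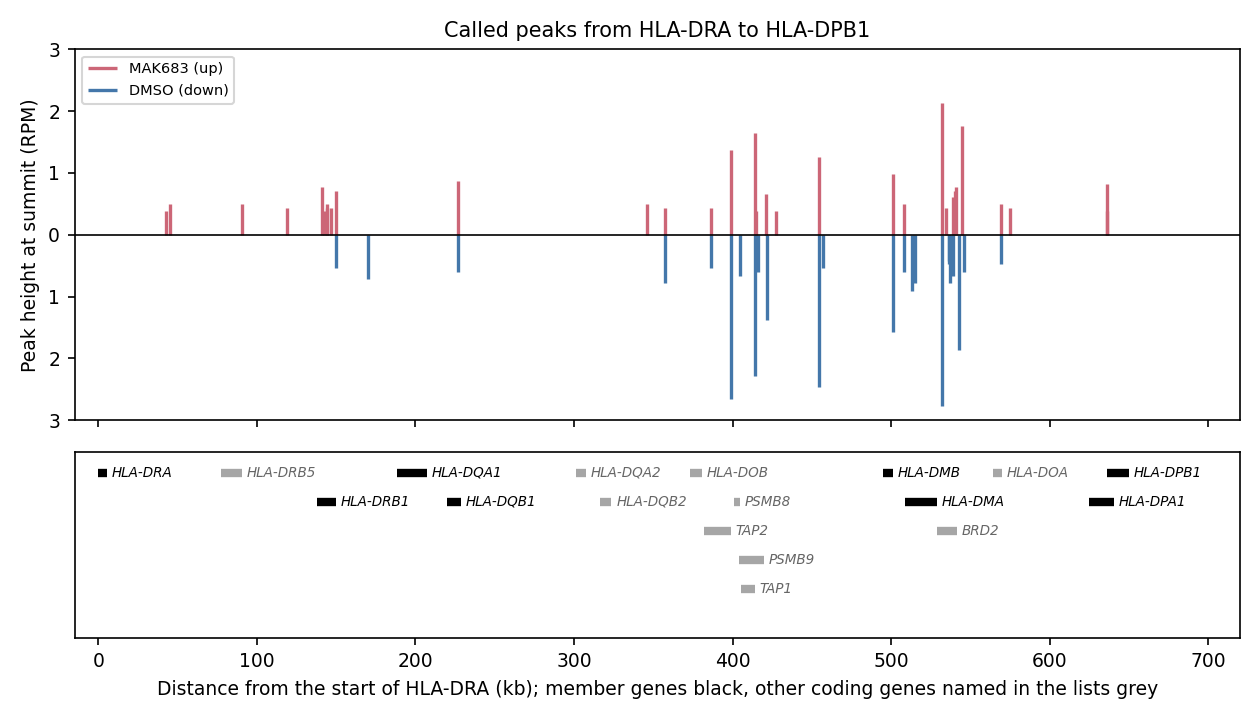
Peaks from HLA-DRA to HLA-DPB1 by distance in kb from the start of HLA-DRA, drawn at their summits with heights in RPM upward for MAK683 (red) and downward for DMSO (blue), over the genes named in the text (members black, others grey). The DR and DQ genes at the left carry low peaks, most of them in MAK683. Tall peaks in both libraries stand near TAP1, TAP2, HLA-DMB and BRD2, and another lies between PSMB9 and HLA-DMB (41 tags in DMSO, 23 in MAK683).

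Genes that act with the class II system, or that only lie beside its genes, CIITA or CD74, were given by 41 symbols in 8 lists. At any start, a promoter peak was present for 34 of them in DMSO and 36 in MAK683, beside 76.2% and 82.5% of all genes. Ratios of list genes are given at the canonical start. All 7 genes of the factors bound to class II promoters had a peak there in both libraries (70.9% of all genes): RFX5, RFXAP and RFXANK of the RFX complex, NFYA, NFYB and NFYC of NF-Y, and CREB1. Their log2 ratios ranged from −0.71 to 0.22 with a median of −0.47. RFX5 had 37 tags in DMSO and 28 in MAK683, and NFYA, the only one higher in MAK683, had 46 and 59.

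The route from interferon gamma to CIITA had peaks in both libraries at all 7 genes as well, with a median log2 ratio of −0.46. IRF1, which acts at a CIITA promoter, had 46 tags in DMSO and 31 in MAK683, a log2 ratio of −0.71 (−1.36 to −0.05). IFNGR2, a chain of the receptor, had 24 and 13 tags, a log2 ratio of −1.02 whose interval reaches −0.05 at its upper end, and was the 1 gene of the 41 past 2-fold (5.89% of all promoters were at least 2-fold lower). Both intervals include the median of all promoters.

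In the endosome, 5 of 6 genes had a peak in both libraries (median log2 ratio −0.46), among them IFI30, a thiol reductase, and the proteases LGMN, CTSL, CTSB and CTSD. CTSS, the protease that trims CD74 in professional antigen-presenting cells, had none in either. Of the ubiquitin ligases that remove class II from the surface, MARCHF1 had 9 tags in DMSO and 10 in MAK683 at its canonical start (log2 ratio 0.01, −1.29 to 1.31). MARCHF8 had no peak at its canonical start in either library. Counting any of its annotated starts, MARCHF8 had a peak in both, with 30 tags in DMSO and 24 in MAK683 (log2 ratio −0.46).

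Among paralogs and neighbours, HLA-DOA, a chain of the HLA-DM modulator HLA-DO, had 8 tags in DMSO and 9 in MAK683. HLA-DRB5 next to HLA-DRB1 had 9 tags in MAK683 only and BTNL2 next to HLA-DRA had 9 in MAK683 only, whereas HLA-DOB, HLA-DQA2 and HLA-DQB2 had none. TAP1 and PSMB9, which share a promoter, had 38 tags in DMSO and 30 in MAK683, TAP2 had 44 and 25, and PSMB8 had 11 in DMSO only. Of the 41 list genes, 3 had a canonical promoter peak in MAK683 only, beside 7.87% of all genes. In DMSO only it was 1 of 41, beside 1.84%. NUBP1 and SOCS1 on either side of CIITA had peaks in both libraries, with log2 ratios of −0.31 and −0.30.

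**Figure D4:**
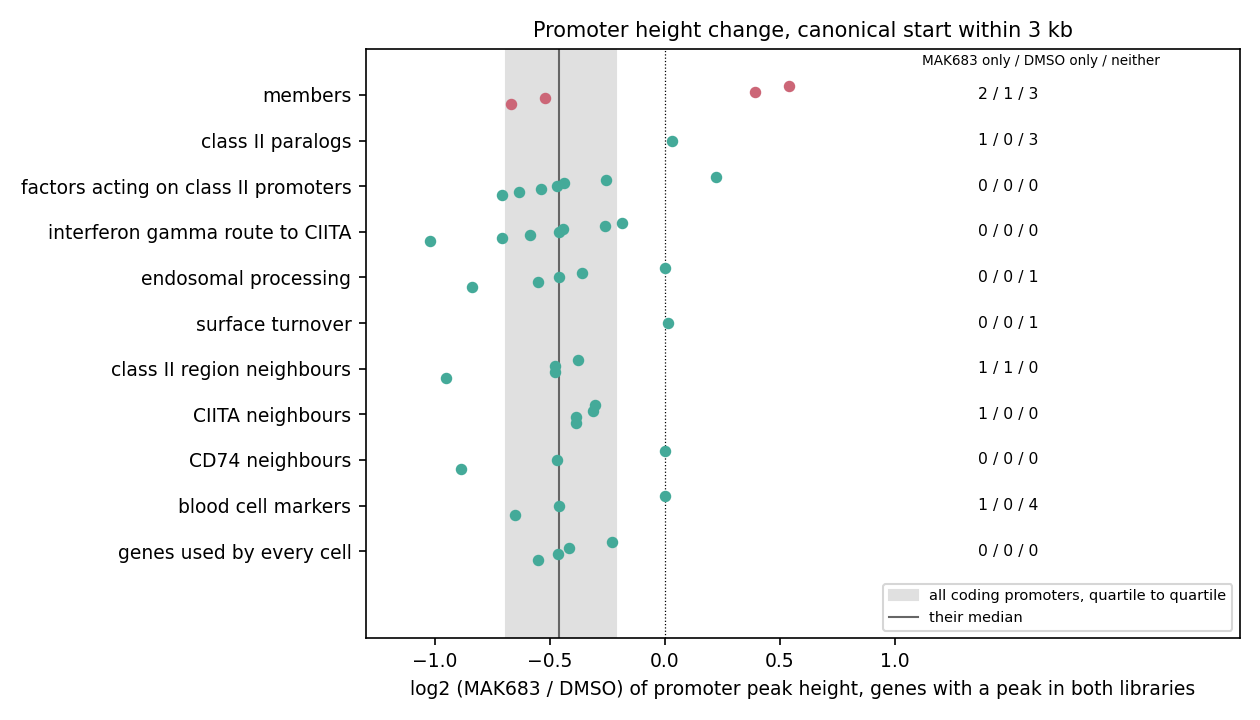
Log2 ratio (MAK683 over DMSO) of promoter peak height at the canonical start, 1 point per gene with a peak in both libraries, for the members (red) and the other lists (green). Grey marks the span between the quartiles of all coding promoters and the line their median of −0.46; the numbers at the right count genes with a peak in MAK683 only, DMSO only and neither, which were 2, 1 and 3 for the members.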

How the data were processed

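ATAC-seq of G401 cells was analysed from 1 DMSO and 1 MAK683 library, grouped by the treatment label. The study's methods name Trim-galore for trimming, Bowtie2 for alignment and hg19 as the genome. MACS 2.1.1.20160309, per the file headers, called narrow peaks separately in each library, while the methods name a later version. It used a shift of −100 bp and an extension to 200 bp, alignments were read as single ends, 1 tag was kept per position, no control and no local background were used, and the q-value cutoff was 0.05. A single background level therefore served the whole genome, and a gene without a peak can still have signal below the caller's limit. The deposited pileup is a signal in whole, unscaled tags. Fold enrichment, a ratio to the genome-wide background computed by the authors, served only as an alternative measure of height. The −log10 q-value, a deposited score that depends on depth, was used as a filter, and the deposited −log10 p-value was left out.

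Peaks on the main chromosomes were joined to GENCODE 44 lifted to GRCh37, all peak ends lying within its chromosome lengths. Of 23901891 (DMSO) and 26692938 (MAK683) tags, 16598348 and 18265284 were left after filtering, and heights were divided by these and multiplied by 1000000. Each promoter took its tallest peak within 3 kb. Heights have 95% exact Clopper-Pearson intervals and ratios 95% Poisson intervals, both for counting error only. With 1 library per group no test was possible, and shares over all 20163 coding genes are given in place of one. Peaks overlapping by at least 1 bp were merged into regions. Starts of CIITA within 300 bp were grouped. Genes were named if they were members or list genes, and some list genes and sequences are not reported here. The members and lists were chosen with earlier results of these data known. Interval and overlap code was tested on simulated data. Alternatives were stricter q-values, raw tags, fold enrichment, centring on shared regions, other windows, starts and overlaps, and equal numbers of peaks. Python 3.11.15, pandas 2.3.3, scipy 1.17.1 and pysam 0.24.0 were used.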

Additional observations from a re-analysis of the deposited data

How the results depend on the processing

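Of 145 values recomputed under alternatives, 116 were counted as kept, 27 as moved and 2 as reversed. Values counted as kept could still differ in size. With equal numbers of peaks, MAK683 peaks at members went from 34 to 27 and MAK683-only regions from 19 to 13. At −log10 q of at least 5, MAK683-only promoters went from 2 to 3. At canonical starts the median log2 ratio of the members went from −0.38 to −0.06. The MAK683-only peak at the canonical CIITA start and the DMSO-only peak at that of HLA-DMA were kept at −log10 q of at least 5, at 10, and with equal numbers of peaks per library. Equal numbers of peaks were planned for promoter states, but chosen after seeing the data for counts of peaks and regions. At 5, the leading CIITA stretch lost its MAK683 peaks of 7 to 9 tags, and at 10 it kept only those of 18 and 23 tags. At 10, HLA-DPB1 and HLA-DRB1 had no promoter peak and HLA-DQB1 had one in MAK683 only. When the summit itself had to lie in the window, the log2 ratio of CIITA became 1.28 and the median of the members 0.0081, because the DMSO peak at DEXI and CLEC16A dropped out and the MAK683 peak there was set against another DMSO peak of 12 tags, so these values do not describe the leading CIITA starts.

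At −log10 q of at least 5, the members had 16 DMSO and 17 MAK683 peaks, 1 member was higher, regions were 7 in both, 8 in DMSO only and 9 in MAK683 only, the class II region had 18 DMSO and 14 MAK683 peaks and 1 list gene was in MAK683 only. At 10, the members had 6 DMSO and 9 MAK683 peaks, 5 had a MAK683 promoter peak, 1 in MAK683 only, 0 were higher, regions were 5, 1 and 3, the class II region had 8 and 7 peaks, and list genes were 1 in MAK683 only, 2 in DMSO only and 0 past 2-fold. With a window of 1 kb, 1 member was in MAK683 only, and with canonical starts 1 was in DMSO only. Promoter windows alone held 22 MAK683 peaks. Requiring 50% overlap gave 4, 14 and 30 regions. With equal numbers of peaks, chosen for this count after seeing the data, the class II region had 24 DMSO and 20 MAK683 peaks. No paired analysis was possible because each group is 1 library. Most low peaks hold 7 to 16 tags, and where the heights of both libraries lie in this range even a 2-fold difference was not detectable above counting error.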
